A study of Bubalus bubalis with 6 samples.

Results

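PICALM gave 76 of the 57308 circRNAs that were read in the venous blood of Jianghuai buffaloes (Bubalus bubalis). CircRNAs are closed RNA circles made when the end of an exon is joined back to the start of an exon upstream, and a read over that back-splice junction is what was counted. The members are every circRNA whose host gene is named PICALM in the deposited table, which describes the gene as the phosphatidylinositol-binding clathrin assembly protein. PICALM was chosen by its read counts, since earlier results of these data placed it among the hosts with the highest level and the most circRNAs. Those features are therefore given as a description.

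Jugular vein blood came from 3 pregnant (P-Buffalo) and 3 non-pregnant (C-Buffalo) cows aged 3 to 5 years, with 1 library per animal. Both groups went through estrus synchronisation with a prostaglandin analogue. The P-Buffalo group was then inseminated, sampled on day 25 and read as pregnant by ultrasound on day 60, while the C-Buffalo group was not inseminated. Insemination and pregnancy therefore cannot be told apart. The libraries were made from whole blood, in which fewer cells of a type and less RNA per cell cannot be told apart either.

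PICALM protein binds phosphoinositides in the plasma membrane and helps clathrin to assemble into the coat of an endocytic vesicle, together with the adaptor complex AP-2. It sorts certain membrane proteins, such as VAMP SNAREs, into these vesicles. In mice, loss of Picalm gives an anaemia with poor uptake of iron through the transferrin receptor in red cell precursors.

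Back-splice reads per library totalled 815851 to 1298753 in P-Buffalo and 931921 to 1141748 in C-Buffalo. Non-pregnant replicate 2 stood apart from the other libraries. It held 12336 of all circRNAs, against 17446 to 26802 in the others, and its TMM factor, the edgeR scaling factor for composition, was 0.467, against 1.09 to 1.25. Its levels in CPM, the counts scaled to the library total, after TMM factors are therefore raised, and results that it moves most are also given without it. Blood cell genes were represented among the hosts: circRNAs were read from 12 of 16 erythroid, 10 of 13 platelet, 6 of 9 neutrophil, 1 of 6 monocyte, 6 of 9 T cell and 6 of 8 B cell markers.

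The 76 circles lay on the plus strand of sequence NC_037549.1 of the buffalo assembly ASM312139v1. Of these, 74 were labelled as exonic and 2 as intronic circles (ciRNAs). The exonic circles used 25 start positions and 15 end positions. Since 12 circles started 1 bp after the start of an exon, the start positions include some that lie 1 bp apart. They held between 2 and 20 exons, with a median of 5, against a median of 3 over all exonic circRNAs of the table. Exon numbers here are the annotated exons between the ends of a circle, and lengths of exon sequence are their sum. Since only the junction was counted, which inner exons a circle keeps was not observed. None of the PICALM circles was built from a single exon, while 6.82% of all exonic circRNAs were. Exons are numbered here along circRNA11469, the longest circle, which spanned 54878 bp and held 20 exons. These numbers start at its first exon and are not those of a transcript.

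**Figure D1:**
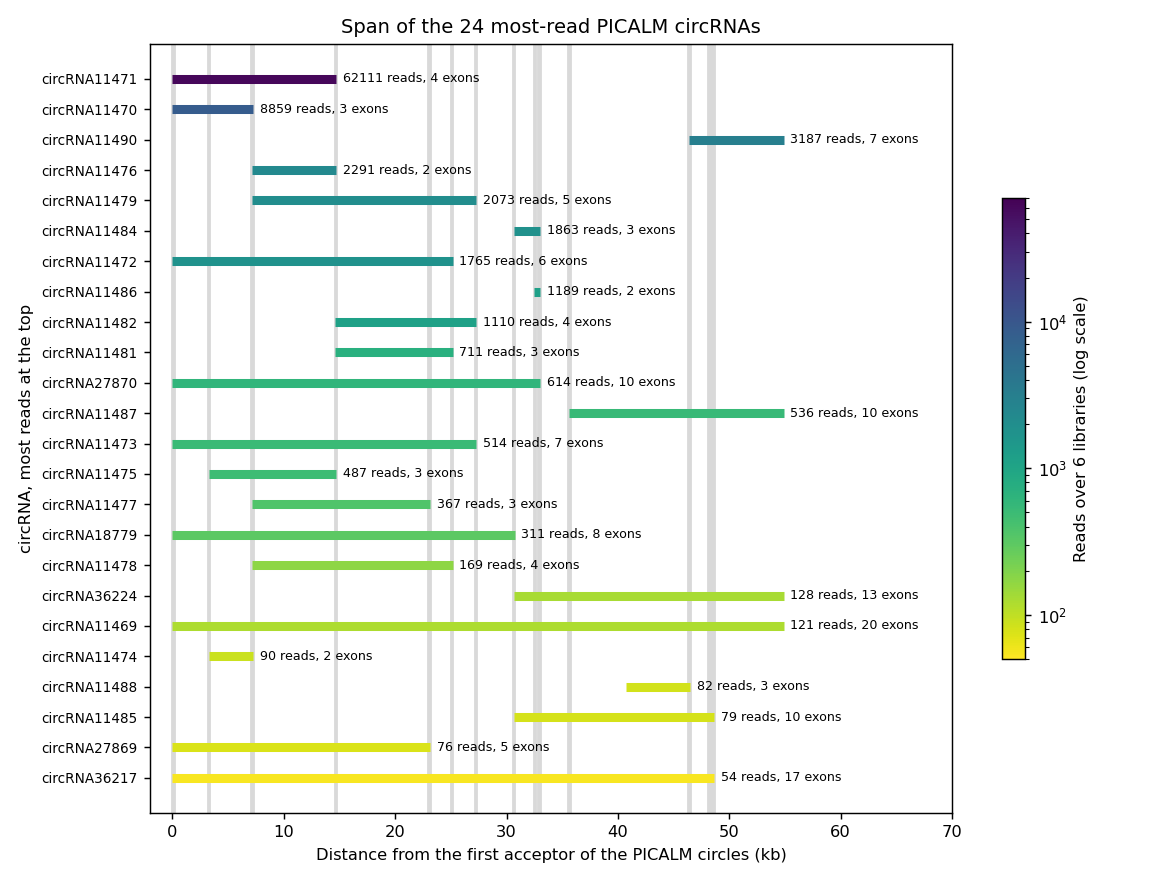
Span of the 24 most-read PICALM circRNAs, as distance in kb from the first acceptor of circRNA11469, with the most-read at the top. Coloured bars show the span from the start to the end of each circle with its reads over 6 libraries, and grey bands mark the 15 of 20 exons whose limits could be placed from the junctions and flanking introns. Most reads fall in circRNA11471 and circRNA11470, which share the first acceptor.

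Most PICALM reads came from a single circle. CircRNA11471 ran from position 85265627 to 85280338 and joined exon 4 back to exon 1, with 416 nt of exon sequence in a span of 14712 bp. It gave 69.4% of the 89452 PICALM reads. Its flanking introns measured 34550 bp upstream and 8328 bp downstream, against medians of 4736 and 4034 bp over 45617 exonic circRNAs. The upstream intron was longer than that of 92.0% of these circRNAs and the downstream intron longer than that of 71.9%.

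CircRNA11470, which began at the same acceptor and ended at exon 3 (position 85272868), followed with 9.90% of the reads and 322 nt of exon sequence. Together with the other members, 12 circles started exactly at this acceptor, and they held 83.3% of all PICALM reads. Further clusters of junctions lay downstream. One was circRNA11490, which joined exon 20 to exon 14 and had 3187 reads. The other was around exons 8 to 10, with circRNA11484 (exons 8 to 10, 1863 reads) and circRNA11486 (exons 9 and 10, 1189 reads in a span of 535 bp). In all, 16 circles ended at exon 20.

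Short circles carried most of the signal. The 35 circles of 2 to 4 exons held 89.0% of the reads, the 25 circles of 5 to 9 exons held 9.17%, and the 14 circles of 10 or more exons held 1.80%. The 12 circles read in all 6 libraries held 96.3% of the reads. At the other end, 30 circles (39.5%) were read in 1 library only, with at most 20 reads, and 15 of these 30 were in pregnant replicate 2, the deepest library. Over all circRNAs of the table, 56.5% were read in 1 library only.

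The percent of PICALM reads from circles that span an exon dropped sharply after exon 4 in all libraries. Exon 4 was spanned by circles holding 74.8%, 88.6% and 81.8% of the PICALM reads in P-Buffalo, against 78.4%, 76% and 63.8% in C-Buffalo. For exon 5 the same values were 8.41%, 11.5% and 7.10% in P-Buffalo, against 4.74%, 8.77% and 7.0% in C-Buffalo. The groups overlapped at both exons. The 4 exonic circles that do not start within 1 bp of an exon start of circRNA11469, and the ciRNAs, are in the total but not counted as spanning an exon.

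**Figure D2:**
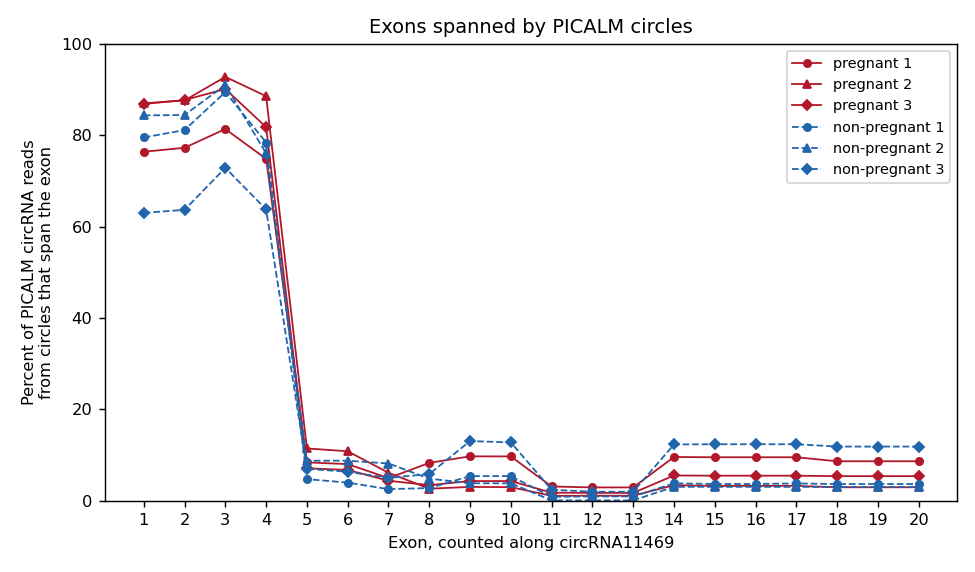
Percent of the PICALM circRNA reads of a library that come from circles spanning each exon, with exons counted along circRNA11469. Each line is 1 library, in red for pregnant and blue for non-pregnant animals. All 6 lines fall steeply between exon 4 and exon 5.

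PICALM was among the hosts with the most circRNA reads in the libraries of both groups, and its reads did not separate the groups. It had 8878, 37359 and 13597 reads in P-Buffalo, against 9372, 14947 and 5299 in C-Buffalo. These were 0.855%, 2.88% and 1.67% of the counts of the P-Buffalo libraries and 0.956%, 1.60% and 0.464% of those of the C-Buffalo libraries. Pregnant replicate 2 had the highest share and non-pregnant replicate 3 the lowest, and the groups overlapped. By reads, PICALM ranked 5, 2 and 3 among 8611 hosts in P-Buffalo, against 8, 3 and 15 in C-Buffalo.

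Averaged over animals, the share was 1.80% ± 1.02 in P-Buffalo and 1.01% ± 0.572 in C-Buffalo (SD, n = 3 each; two-sided exact permutation test, p = 0.4). In CPM after TMM factors, the summed level was 17189 ± 10329 in P-Buffalo and 12711 ± 10181 in C-Buffalo (SD, n = 3 each). The edgeR quasi-likelihood test over 4137 hosts gave a log2 fold change of 0.44 (SE 0.54, 95% interval -0.71 to 1.58) and an adjusted p of 0.984. Without non-pregnant replicate 2 the log2 fold change was 1.29, and without pregnant replicate 2 it was -0.15.

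**Figure D3:**
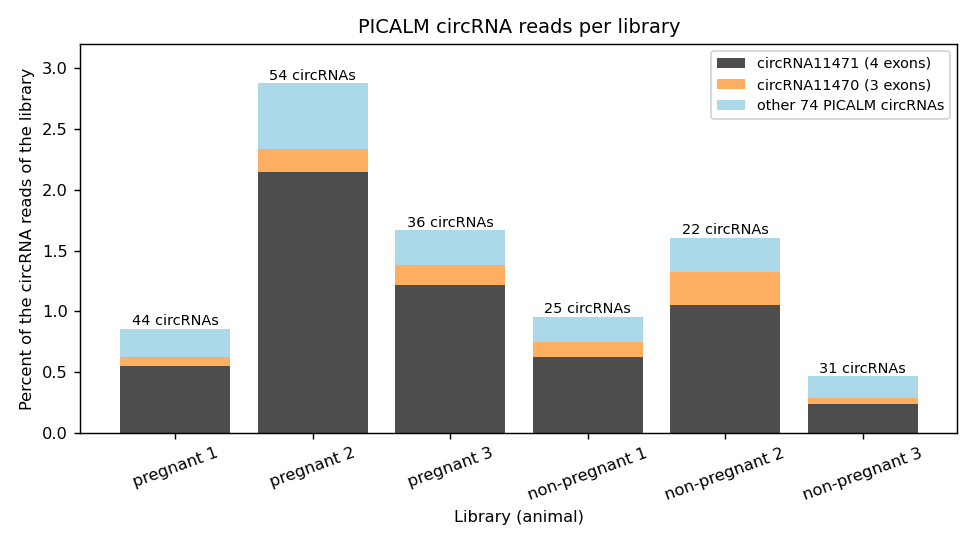
PICALM circRNA reads as percent of the circRNA reads of each library, stacked by circRNA11471, circRNA11470 and the other 74 circles. The number above a bar is the number of PICALM circRNAs read in that library. The bars of the pregnant animals lie between 0.855% and 2.88% and overlap those of the non-pregnant animals, while the numbers above them do not overlap.

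CircRNA11471 varied over a wide range among animals of both groups. It had 5746, 27846 and 9918 reads in P-Buffalo, against 6141, 9791 and 2669 in C-Buffalo. After TMM factors these were 4693, 19596 and 9745 CPM in P-Buffalo and 5763, 22507 and 1909 CPM in C-Buffalo. The highest and the lowest value were both in C-Buffalo, where the highest was that of non-pregnant replicate 2. The edgeR test over 8261 circRNAs gave a log2 fold change of 0.17 (SE 0.84, 95% interval -1.74 to 2.08) and an adjusted p of 0.988. Without non-pregnant replicate 2 the value was 1.56, and with library totals implied by SRPBM, the authors' scaled signal, it was 1.25, where the median of all circRNAs was 0.24. The interval leaves room for changes in either direction.

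The share of circRNA11471 in the PICALM reads was 64.7%, 74.5% and 72.9% in P-Buffalo, against 65.5%, 65.5% and 50.4% in C-Buffalo. The widest 95% Wilson interval was that of non-pregnant replicate 3, at 49.0% to 51.7%, and such intervals cover counting error only. The mean share was 70.7% ± 5.27 in P-Buffalo and 60.5% ± 8.75 in C-Buffalo (SD, n = 3 each), a difference of 10.3 percentage points (two-sided exact permutation test, p = 0.3). Pregnant replicate 1 lay within the C-Buffalo range. With circRNA11471 taken away, and the most-read circRNA of every other host likewise, the log2 fold change of the PICALM sum was -0.38 (SE 0.65, 95% interval -1.76 to 1.00), with an edgeR adjusted p of 0.959 over 2623 hosts, of which 1.6% were higher and 4.42% lower at an unadjusted p under 0.05 and 2-fold. That value was 0.75 without non-pregnant replicate 2.

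The top circle held less of the reads in PICALM than in the hosts of the other most abundant circRNAs in earlier results. Over the 6 libraries its share was 50.4% to 74.5% in PICALM, against 94.5% to 98.2% in USP3, 94.7% to 96.9% in VRK1, 92.6% to 95.4% in ELF1 and 97.8% to 99.6% in UBE3A. The filter on low counts was passed by 23 of the 76 PICALM circRNAs, against 8 of 26 for USP3, 13 of 29 for VRK1, 3 of 16 for ELF1 and 3 of 23 for UBE3A. These hosts were chosen by the level of a single circle, which favours hosts where the top circle holds a large share. The contrast is therefore a description of these hosts and does not place PICALM among hosts in general.

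Circles from the acceptor of exon 1 differed between the groups in where they ended. These circles are the 14 members that start at this acceptor, 2 of them 1 bp later. Circles that ended beyond exon 4 made up 4.79%, 6.56% and 4.51% of these reads in P-Buffalo, against 2.09%, 2.16% and 2.28% in C-Buffalo. Circles that ended at exon 3 made up 10.4%, 7.73% and 11.3% in P-Buffalo, against 15.5%, 20.2% and 17.8% in C-Buffalo. Circles that ended at exon 4 made up 84.7%, 85.7% and 84.0% in P-Buffalo, against 82.4%, 77.6% and 79.9% in C-Buffalo. The 3 libraries of one group did not overlap those of the other in any of these shares. The reads past exon 4 include those of circRNA27870, circRNA11469 and circRNA27869, which are described below as higher in pregnant animals. The share past exon 4 and the results of those circles are thus not separate observations.

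The ratio of circRNA11471 to circRNA11470 reads was 8.15, 11.1 and 7.40 in P-Buffalo, against 5.30, 3.84 and 4.49 in C-Buffalo. These are the only circles from exon 1 that ended at exon 4 and at exon 3. The ratio thus restates the shares given for those exons and is not a separate observation. Both measures are ratios within a library and do not depend on the scaling between libraries. Both were chosen after the values were seen and are given with no test. Among 133 hosts with at least 50 reads of both of their most-read circRNAs in every library, the ratio was higher in all pregnant animals for 12.8% and lower in all of them for 3.01%. Among 237 hosts with at least 200 reads from the acceptor of their most-read circRNA in every library, the share that ended past its donor was higher in all pregnant animals for 14.3% and lower in all of them for 0.844%. PICALM is thus 1 of a minority of hosts with this order of the groups, and most of those that separated did so in the same direction.

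CircRNA11470 itself had 705, 2514 and 1340 reads in P-Buffalo, against 1158, 2547 and 595 in C-Buffalo, and the groups overlapped. Its log2 fold change was -1.01 (SE 0.92) in edgeR, and 0.68 without non-pregnant replicate 2. CircRNA11472, which runs on to exon 6, had 202, 1120 and 219 reads in P-Buffalo, against 100, 81 and 43 in C-Buffalo. In reads the groups were apart, but in CPM they overlapped, with 165, 788 and 215 CPM in P-Buffalo against 93.9, 186 and 30.8 CPM in C-Buffalo. Its log2 fold change was 1.92 (SE 0.97), at an unadjusted edgeR p of 0.0798. Without non-pregnant replicate 2 it was 2.65, at an unadjusted edgeR p of 0.0250. CircRNA11473, from exon 1 to exon 7, had 44, 273 and 130 reads in P-Buffalo, against 53, 0 and 14 in C-Buffalo. The only reads of non-pregnant replicate 2 for this circle, 7, stood under circRNA20124, which has a start 1 bp later.

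More PICALM circRNAs were read in each pregnant animal than in any non-pregnant one. The number with at least 1 read was 44, 54 and 36 in P-Buffalo, against 25, 22 and 31 in C-Buffalo, with a mean of 44.7 ± 9.02 in P-Buffalo and 26 ± 4.58 in C-Buffalo (SD, n = 3 each). The two-sided exact permutation test gave p = 0.1, the smallest that 3 animals against 3 can give. Among 226 hosts with at least 30 circRNAs, the number was higher in all pregnant animals for 6.19% and lower in all of them for 0.442%. Within each group, the order of the libraries was the same for all circRNAs read as for those of PICALM. Between the groups, pregnant replicate 3 held 17989 circRNAs over all hosts and 36 of PICALM, while non-pregnant replicate 3 held 24799 over all hosts and 31 of PICALM. The part of the number of all circRNAs read in this result was not tested.

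Depth and PICALM level were evened out by thinning. With each library thinned to 815851 counts, the number expected was 43.6, 52.6 and 36 in P-Buffalo, against 25, 21.8 and 30.3 in C-Buffalo. With the PICALM reads of each library thinned to 5299, it was 42.8, 42.0 and 33.3 in P-Buffalo, against 24.8, 19.2 and 31 in C-Buffalo. At a detection limit of 5 reads it was 37, 43 and 29 in P-Buffalo, against 22, 15 and 25 in C-Buffalo. The groups stayed apart in each case, with the smallest gap between pregnant replicate 3 and non-pregnant replicate 3.

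By group, 32 of the 76 circles (42.1%) had reads in P-Buffalo alone, 6 (7.89%) in C-Buffalo alone and 38 in both. Over all circRNAs, 37.9% had reads in P-Buffalo alone and 25.7% in C-Buffalo alone. The circles read in P-Buffalo alone were mostly shallow, with a median of 5 reads. Just 1 circle was read in every pregnant animal and in no non-pregnant animal (0.75% of all circRNAs), and none in the reverse (0.215% of all circRNAs).

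That circle was circRNA36224, which joins exon 20 to exon 8 and holds 13 exons. It had 71, 32 and 25 reads in P-Buffalo, against 0, 0 and 0 in C-Buffalo. Against the limit that 3 counts over the C-Buffalo group allow, it was at least 33.8-fold higher in P-Buffalo, and at least 28.7-fold higher without non-pregnant replicate 2. These bounds cover counting error only. However, circRNA20126 has the same end and starts 1 bp apart, and it had 0, 0 and 0 reads in P-Buffalo, against 0, 2 and 9 in C-Buffalo. With both taken as 1 circle, reads were present in non-pregnant animals too, and the log2 fold change was 3.25 (SE 1.21), at an unadjusted edgeR p of 0.0221 and an adjusted p of 0.844. The same merging joined circRNA38319 and circRNA48340 (exons 1 and 2) into a circle with 7, 16 and 20 reads in P-Buffalo, against 0, 0 and 0 in C-Buffalo, too few to pass the filter. This pair was named after its values were seen.

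Such near-identical junctions were frequent. Among the 76 circles were 8 pairs whose ends lay within 1 bp, so that 68 circles were left after merging. There were 31 cases of a pair with reads in a library, and in 0 of them did both members have reads. Whether both positions of a pair mark the same circle was not tested beyond the merging.

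**Figure D4:**
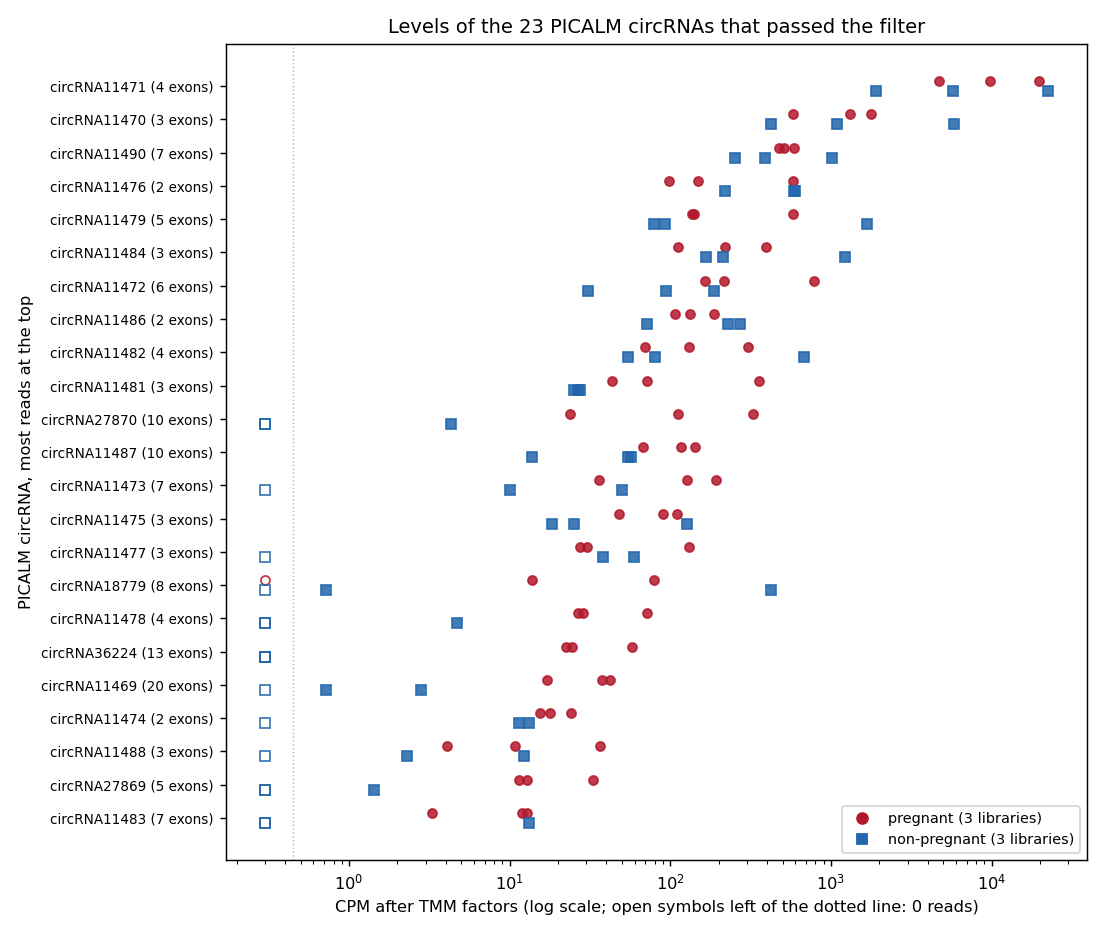
Levels in CPM after TMM factors (log scale) of the 23 PICALM circRNAs that passed the filter on low counts. Circles are pregnant and squares non-pregnant animals, 1 symbol per library, and open symbols at the left stand for 0 reads. The groups overlap for the circles with most reads, and the pregnant animals lie above the non-pregnant ones for 8 circles, all outside the 9 most-read.

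In the edgeR test over all circRNAs, 23 of the 76 PICALM circles passed the filter and 0 of the 76 had an adjusted p under 0.05, as in the whole table (0% of 8261). DESeq2, edgeR's exact test and limma gave 0 as well, and edgeR without the filter gave 1, circRNA27870. At an unadjusted p under 0.05 and a change of at least 2-fold, 6 circles were higher in pregnant animals and 0 lower. Over all 8261 circRNAs tested, 1.43% were higher and 2.46% lower by this rule. With circles merged within 1 bp the counts were again 6 higher and 0 lower, against 1.72% higher and 3.61% lower over all 8613 merged circRNAs tested. A circle with few or 0 reads in 1 group can pass the filter through the other group alone. Among the 6 circles higher before merging, circRNA36224, circRNA27870, circRNA11469, circRNA11478 and circRNA27869 had at most 6 reads in any C-Buffalo library. They therefore passed the filter through P-Buffalo alone. The counts of circles higher and lower thus describe the members and support nothing by themselves. The groups did not overlap in CPM for 8 circles, all with the pregnant animals above, where 8.16% of the circRNAs tested were above and 3.87% below. The number of circles higher ranged from 3, without pregnant replicate 2, to 9 under the alternatives, and that of circles lower was 0 under each of them.

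After circRNA36224, the smallest p was that of circRNA27870, which joins exon 10 to exon 1. It had 29, 466 and 113 reads in P-Buffalo, against 0, 0 and 6 in C-Buffalo. Its log2 fold change was 6.43 (SE 1.71) at an unadjusted edgeR p of 0.00452 and an adjusted p of 0.983. Without the filter on low counts the edgeR adjusted p was 0.0358, and over all alternatives it ran from 0.0358 to 1.00. The value in pregnant replicate 2 was over all others, and those of the remaining pregnant animals were still above the C-Buffalo ones.

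CircRNA11469, the circle of 20 exons, had 21, 53 and 43 reads in P-Buffalo, against 3, 0 and 1 in C-Buffalo. Its log2 fold change was 4.50 (SE 1.29, unadjusted edgeR p of 0.00685). CircRNA11478, which holds exons 3 to 6, had 35, 102 and 27 reads in P-Buffalo, against 5, 0 and 0 in C-Buffalo, with a log2 fold change of 4.55 (SE 1.48, unadjusted edgeR p of 0.0133). Both were low in all non-pregnant animals and did not overlap between the groups. Their fitted sizes depend on the prior count, since some C-Buffalo libraries were at 0.

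CircRNA27869, which holds exons 1 to 5, had 14, 47 and 13 reads in P-Buffalo, against 0, 0 and 2 in C-Buffalo (log2 fold change of 4.77, SE 1.67, unadjusted edgeR p of 0.0189). CircRNA11481, which holds exons 4 to 6, had 53, 508 and 73 reads in P-Buffalo, against 29, 11 and 37 in C-Buffalo. In CPM it stood at 43.3, 357 and 71.7 in P-Buffalo and at 27.2, 25.3 and 26.5 in C-Buffalo, and its log2 fold change was 2.58 (SE 1.07, unadjusted edgeR p of 0.0399). The C-Buffalo libraries of this circle lay close together and the spread was that of the pregnant animals. Without pregnant replicate 2 the log2 fold change was 1.10 at an unadjusted edgeR p of 0.302, and the unadjusted p was 0.158 in DESeq2. Without pregnant replicate 2 the unadjusted edgeR p was also over 0.05 for circRNA11478 (0.0730) and circRNA27869 (0.0901). CircRNA36217, with 17 exons, had 13, 41 and 0 reads in P-Buffalo, against 0, 0 and 0 in C-Buffalo, and did not pass the filter.

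The remaining circles of the 12 most-read did not pass the unadjusted threshold. CircRNA11490, the main circle at the 3′ end of the set, had 582, 838 and 515 reads in P-Buffalo, against 269, 443 and 540 in C-Buffalo, with a log2 fold change of -0.08 (SE 0.69), which was 0.68 without non-pregnant replicate 2. CircRNA11476, which holds exons 3 and 4, had 120, 828 and 151 reads in P-Buffalo, against 629, 258 and 305 in C-Buffalo, with a log2 fold change of -0.76 (SE 0.86). CircRNA11487, which holds exons 11 to 20, had 83, 165 and 145 reads in P-Buffalo, against 61, 6 and 76 in C-Buffalo, with a log2 fold change of 1.37 (SE 0.93). Only circRNA11487 of these had groups that did not overlap.

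CircRNA11479, with exons 3 to 7, had 173, 822 and 139 reads in P-Buffalo, against 84, 726 and 129 in C-Buffalo. CircRNA11482, with exons 4 to 7, had 85, 435 and 133 reads in P-Buffalo, against 85, 296 and 76 in C-Buffalo. Both were highest in replicate 2 of each group. CircRNA11484 had 485, 159 and 223 reads in P-Buffalo, against 227, 535 and 234 in C-Buffalo, and circRNA11486 had 130, 267 and 135 in P-Buffalo, against 245, 31 and 381 in C-Buffalo. The edgeR log2 fold changes of these circles lay between -1.14 and -0.43, each within 1.5 SE of 0. Without non-pregnant replicate 2, that of circRNA11479 was 1.72 in place of -1.10, that of circRNA11482 was 1.32 in place of -0.68, that of circRNA11484 was 0.33 in place of -1.14 and that of circRNA11486 was -0.84.

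The long circles made up a small share in all animals. Circles of 10 or more exons held 3.09%, 2.14% and 2.47% of the PICALM reads in P-Buffalo, against 0.779%, 0.0803% and 2.17% in C-Buffalo. Circles of 5 or more exons held 15.2%, 11.1% and 10.3% in P-Buffalo, against 6.40%, 9.75% and 16.3% in C-Buffalo. The groups overlapped in both shares. The mean annotated number of exons per circle, weighted by reads, was 4.33, 4.19 and 4.2 in P-Buffalo, against 3.82, 3.96 and 4.05 in C-Buffalo. In this mean the groups did not overlap. It was chosen after the values were seen, is given with no test and was not computed for other hosts.

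The circles labelled as intronic were at the limit of detection. CiRNA5486 had 2 reads in pregnant replicate 1 and ciRNA5967, the shortest of all members at 156 bp, had 3 reads in pregnant replicate 2. CiRNA5486 ran from position 85261283 to 85272868, from upstream of exon 1 to the end of exon 3. Its span therefore covers exons, whatever its label. The shortest exonic circle, circRNA18782 (exons 15 and 16, 243 bp), had 2 reads in non-pregnant replicate 2. Taking 3 counts as the limit for a circle without reads, the libraries reach 2.31 to 3.68 CPM before scaling by TMM, so that circles this low cannot be called absent from the other libraries.

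Across the 6 libraries, the hosts whose log2 CPM followed that of PICALM most closely were NSD2 (Pearson r = 0.988), HECTD4 (r = 0.984), MCM3 (r = 0.978), SOX6 (r = 0.959) and GPCPD1 (r = 0.952). They were the highest of many hosts over 6 points that share library composition, and the values are a description. SOX6, a transcription factor of the erythroid lineage among others, had 1743 and 2349 CPM in replicate 2 of P-Buffalo and of C-Buffalo, the libraries with the highest PICALM level.

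PICALM had 8003, 28370 and 15195 CPM in P-Buffalo, against 9926, 23995 and 4212 CPM in C-Buffalo, and the erythroid marker genes had a similar order over the libraries. The summed circRNA level of the 12 erythroid markers read was 5116, 8430 and 6497 CPM in P-Buffalo, against 4686, 7823 and 3446 CPM in C-Buffalo, with GATA1, KLF1 and HBB at 0. This sum includes SOX6, named above for its r with PICALM. SOX6 alone had 272, 1743 and 1215 CPM in P-Buffalo, against 591, 2349 and 210 CPM in C-Buffalo. The platelet markers ran from 1501 to 2318 CPM in P-Buffalo, below the 2843 to 5277 CPM in C-Buffalo, with GP1BA, PF4 and GP9 at 0. Neutrophil markers lay at 62.2 to 216 CPM in P-Buffalo and 134 to 214 CPM in C-Buffalo (CXCR2, FCGR3A and ELANE at 0), and monocyte markers at 0 to 6.31 CPM in P-Buffalo and 0 to 8.47 CPM in C-Buffalo (CSF1R alone read). T cell markers ranged over 1535 to 2646 CPM in P-Buffalo and 2169 to 4371 CPM in C-Buffalo (CD3D, CD247 and CD28 at 0), and B cell markers over 257 to 517 CPM in P-Buffalo and 254 to 586 CPM in C-Buffalo (CD79A and CD79B at 0). The part of the blood cell makeup in the PICALM values was not tested.

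The circRNAs of other genes of clathrin-mediated endocytosis showed no common direction. Of 68 listed genes 52 had circRNAs, 500 in all, and 32 hosts could be tested. By the edgeR test 0 of the 32 had an adjusted p under 0.05 (0% of 4137 hosts). At an unadjusted p under 0.05 and 2-fold, 0 were higher and 1 was lower, against 0.967% higher and 4.52% lower over all 4137 hosts tested. The log2 fold change was above 0 for 17 of the 32, and its median was 0.07, against 0.01 over all hosts. This median was below 0 with RLE factors (-0.09), with a filter at a mean count of 20 (-0.06), with DESeq2 (-0.01) and without pregnant replicate 1 (-0.19).

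The gene below the threshold was FCHO2, a membrane-bending protein of early clathrin pits, with 200, 281 and 145 CPM in P-Buffalo, against 238, 2519 and 158 CPM in C-Buffalo. Its log2 fold change of -2.22 (SE 0.80, edgeR adjusted p of 0.844) rested on non-pregnant replicate 2, without which it was 0.09. DNM3, a dynamin that cuts vesicles off and also a platelet marker here, had the highest mean level, with 1225 ± 314 CPM in P-Buffalo and 2163 ± 814 CPM in C-Buffalo (SD, n = 3 each; log2 fold change of -0.82, SE 0.45, and -0.47 without non-pregnant replicate 2). FNBP1, an F-BAR protein, averaged 1038 ± 167 CPM in P-Buffalo and 836 ± 219 CPM in C-Buffalo. REPS1, an EPS15-homology protein, averaged 953 ± 180 CPM in P-Buffalo and 705 ± 158 CPM in C-Buffalo.

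Next in level were BMP2K, a kinase related to AAK1, with 611 ± 64.4 CPM in P-Buffalo and 565 ± 145 CPM in C-Buffalo, and TFRC, the transferrin receptor, with 488 ± 111 CPM in P-Buffalo and 573 ± 441 CPM in C-Buffalo. The log2 fold change of TFRC was -0.23, and 0.62 without non-pregnant replicate 2, which had 1079 CPM. INPP5F, a phosphoinositide phosphatase, averaged 270 ± 272 CPM in P-Buffalo and 677 ± 145 CPM in C-Buffalo, and EPS15, a scaffold of the clathrin pit, 416 ± 61.5 CPM in P-Buffalo and 522 ± 202 CPM in C-Buffalo (SD, n = 3 each). The smallest p of hosts with negative values after FCHO2 were those of SYNJ1, a synaptojanin (log2 fold change of -1.26, SE 0.62), and ITSN1, an intersectin (-1.57, SE 0.79). Without non-pregnant replicate 2 the value of SYNJ1 was -0.39 and that of ITSN1 was -1.39, at an unadjusted edgeR p of 0.0451. On the positive side they were those of HSPA8, the chaperone that uncoats vesicles (2.58, SE 1.37), BIN1, an amphiphysin-family protein (2.55, SE 1.55), and NUMB, an endocytic adaptor (1.33, SE 1.10, and 0.77 without non-pregnant replicate 2). None of these passed the unadjusted threshold with all 6 libraries.

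The fold changes of the summed PICALM reads, of circRNA11471 and of the sum without it were recomputed under the other processings. The PICALM sum ran from -0.15 to 1.29 and circRNA11471 from -0.52 to 1.56. The sum without circRNA11471 ran from -0.96 to 0.75. Each of the 3 changed sign under some of them, so no direction is given for the level of PICALM circRNAs in pregnancy.

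**Figure D5:**
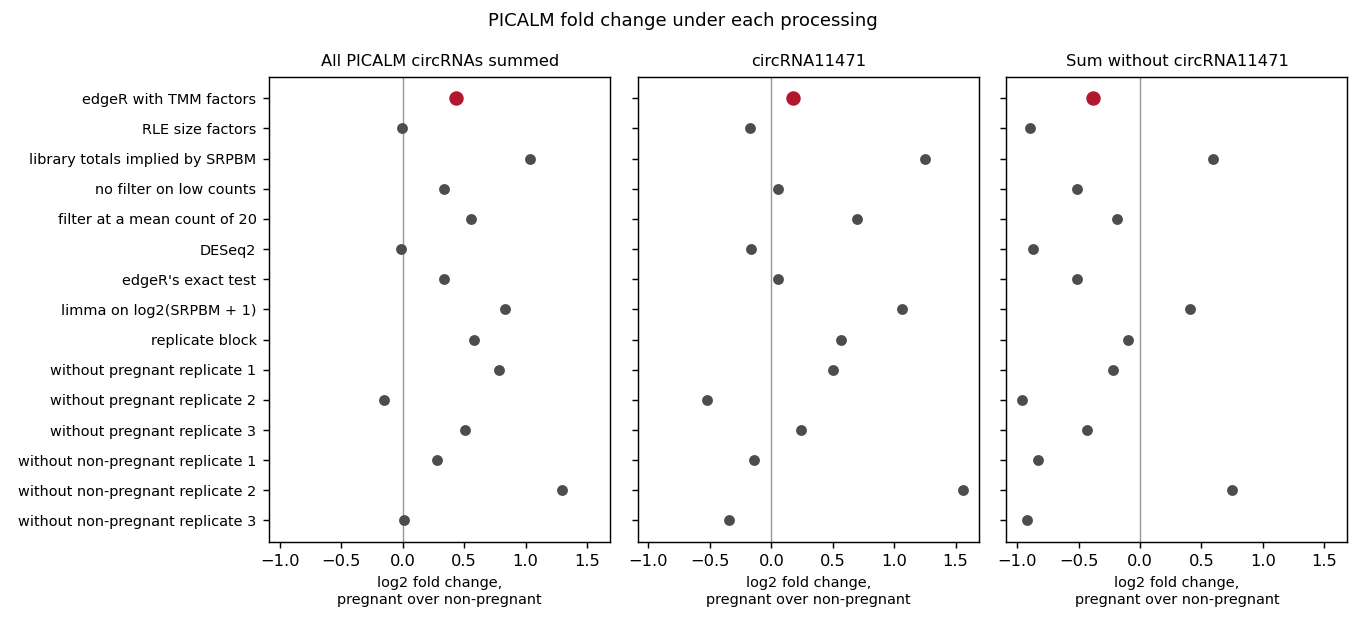
Log2 fold change, pregnant over non-pregnant, of all PICALM circRNA reads, of circRNA11471 and of the sum without it, under the processings listed at the left. The red point is edgeR with TMM factors and all 6 libraries, grey points are alternatives, and the vertical line is 0. Limma on log2(SRPBM + 0.1) and the merging within 1 bp are not shown. Points lie on both sides of 0 in each panel, and the value farthest to the right is the one without non-pregnant replicate 2.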

How the data were processed

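The table that the authors deposited gives a count of back-splice reads per circRNA and library, not normalized, and beside it a signal, SRPBM, in which each library's count is scaled by its own constant. RNase R had been used to digest linear RNA. In the study's methods, reads were trimmed with Cutadapt, checked with FastQC, mapped to ASM312139v1 with Bowtie2 and Tophat2 (Tophat-fusion for the rest), and CIRCExplorer and CIRI called the circles. By contrast, the submitters' processing notes list HISAT2, StringTie, fastp, edgeR, HOMER, ChIPseeker and the human build GRCh38.p10. Which of these lists applies to the table is not known here. The members, gene lists and tests were chosen with earlier results of these data known.

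Counts were tested with edgeR 4.0.16 in R 4.3.3 (quasi-likelihood test, TMM factors, its default filter by group, Benjamini-Hochberg adjustment) over all 8261 circRNAs that passed, over 4137 hosts with summed counts, and over 2623 hosts after removal of the most-read circRNA of each. Each table had TMM factors of its own. A call was made at p under 0.05 with a log2 fold change of 1 or more in size. The paper's t-test was replaced by this test. The log2 CPM for the correlations had a prior count of 2. Single values per library were compared by exact permutation tests (scipy 1.17.1). P-values measure the spread between these animals only. The main fits over all circRNAs and over hosts with summed counts were first run on simulated counts in which 200 features had been changed. The fit after removal of the most-read circRNA and the alternatives were not run on such counts.

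Named circRNAs were the 12 most-read, up to 6 per direction with the smallest p, and those read in every animal of 1 group and none of the other. The extremes of exon number and span, those labelled as intronic, partners within 1 bp, and 6 seen in supplementary tables were also named. Named hosts were the 8 endocytosis genes of highest level, up to 3 per direction by p, and the 5 hosts most like PICALM. The alternatives were other scalings (RLE factors, SRPBM-implied totals), other filters (none, or a mean count of 20), other tests (DESeq2 1.42.0, the exact test in edgeR, and limma 3.58.1 on log2 SRPBM with 1 or 0.1 added), a replicate block, each library left out, and circles merged within 1 bp. Thinning to equal PICALM reads, leaving out libraries for the ratio and the share past exon 4, and merging without non-pregnant replicate 2 were added after seeing the data. GO terms of the gene were not used here, and 1 listed marker is not reported here.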

Additional observations from a re-analysis of the deposited data

How the results depend on the processing

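With RLE factors the log2 fold change was -0.0031 for the PICALM sum (median of all hosts -0.13) and -0.17 for circRNA11471, and with DESeq2 it was -0.012 and -0.16. With library totals implied by SRPBM it was 0.59 for the sum without circRNA11471 and 0.11 for circRNA11470. With limma on log2(SRPBM + 1) these were 0.41 and 0.11, and on log2(SRPBM + 0.1) 0.41 and 0.11. The median of the endocytosis hosts was 0.37 and 0.42 under these limma settings, where the median of all hosts moved as well, to 0.32 and 0.44. Leaving out 1 library in turn gave -0.15 to 1.29 for the PICALM sum, -0.52 to 1.56 for circRNA11471, -0.96 to 0.75 for the sum without it, -1.54 to 0.68 for circRNA11470, -2.73 to 0.089 for FCHO2, -0.19 to 0.20 for the endocytosis median and 3 to 7 for the number of circles at an unadjusted p under 0.05. The difference in the share of circRNA11471 was 5.22 to 13.3 percentage points over the alternatives, and that in the number of circles read was 14 to 23. Without the filter on low counts the edgeR adjusted p was 0.0358 for circRNA27870 and 0.0206 for FCHO2, whose adjusted p over all alternatives ran from 0.0206 to 1.00. The causes of these changes were not tested. Same-numbered animals did not deviate together (r of -0.108, -0.0529 and -0.0330). The labels do not say whether the replicate numbers pair the samples, and these values cannot decide it. With the replicate block the sum was 0.58, circRNA11471 0.57, the sum without it -0.10 and the number of circles 4. Over all results and alternatives 17 tested values changed sign, 2 passed the threshold and 4 counts or medians moved beyond their limit. The median of the endocytosis hosts, which has no test, also went below 0 with RLE factors (-0.09), a mean count of 20 (-0.06) and DESeq2 (-0.01). With 3 animals per group and low counts in most circles, depth limits what the absence of a circle can show.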
